A study of Homo sapiens with 9 samples.

Results

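Fatty acid and retinoid binding proteins were described in TC-32 Ewing sarcoma cells that carried either a control vector or an ETS1 transgene. The 8 genes, chosen by name as FABP3, FABP4, FABP5, FABP6, FABP7, CRABP1, CRABP2 and RBP4, are 8 of 58381 genes in the count table. They were picked because earlier results of these data had shown the loss of FABP7 in the ETS1 cells, so their levels against the control are given as a description without a test. TC-32 is an established human cell line of Ewing sarcoma, a bone and soft tissue tumour driven by the EWSR1::FLI1 fusion, and all groups keep that fusion.

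The 9 RNA-seq libraries form 3 groups of 3. RFP cells carry the lentiviral pLOC vector with a red fluorescent protein, whereas ETS1-Low and ETS1-High cells carry the same vector with a human ETS1 cDNA. Transduced cells were selected with puromycin and sorted as single cells, and the ETS1 groups are described as single cell clones, with ETS1-High brought to the ETS1 level of cells depleted of EWSR1::FLI1. ETS1 encodes a transcription factor of the ETS family. The question put by the design is what ETS1 does to gene expression while EWSR1::FLI1 is present. The labels give neither the number of clones per group nor whether libraries of a group came from separate cultures. The p-values therefore measure only the spread between these libraries, which may be technical. Effects of ETS1 and differences between clones cannot be told apart.

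ETS1 itself measured 2.00 ± 0.17, 10.6 ± 0.30 and 19.1 ± 0.81 CPM (counts scaled to a common library size, mean ± SD, n = 3) in RFP, ETS1-Low and ETS1-High, in the order of the labels. The 3 groups did not overlap. Library totals ran from 39484704 to 46654734 expected counts. All 10 Ewing sarcoma identity genes listed passed the filter on low counts. Their summed level was 2580 to 2690 CPM in RFP, 3860 to 3930 in ETS1-Low and 3940 to 3950 in ETS1-High. The sum rests mostly on CCND1, which alone measured 1550, 2520 and 2500 CPM in these groups. Of the 10, 9 were higher than in RFP in both ETS1 groups and 1, GLI1, was lower. Markers of 3 other cell types were low. Adipocyte markers summed to 7.05 to 7.79, 14.5 to 15 and 13.9 to 15.1 CPM in the same order, with ADIPOQ, LEP and CIDEC at 3 counts or fewer in every library. Schwann and glial markers summed to 0.512 to 0.619, 2.30 to 2.6 and 0.635 to 1.01 CPM with SOX10 at 3 counts or fewer, and myeloid markers to 4.81 to 5.92, 2.35 to 2.96 and 1.33 to 1.84 CPM with MARCO at 3 counts or fewer. The part of these differences in the results below was not tested. In bulk RNA, fewer cells that carry a transcript and less of it per cell cannot be told apart.

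Fatty acid binding proteins and cellular retinoic acid binding proteins belong to a family of small cytoplasmic proteins that fold into a barrel around a lipid ligand and carry it through the cell. FABP7 is the form of the brain, where it marks radial glia and binds long-chain polyunsaturated fatty acids. CRABP2 hands retinoic acid to its nuclear receptor, and CRABP1 is the other cytoplasmic retinoic acid carrier, while RBP4 is a secreted lipocalin that carries retinol in blood and is no member of this family.

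In RFP cells FABP7 was the most abundant transcript of the 8 per length, and it was nearly absent from both ETS1 groups. CRABP1, low in RFP, took the first place in both ETS1 groups. CRABP2 went the other way, with a 3.43-fold lower level in ETS1-Low and a 4.88-fold lower level in ETS1-High than in RFP. FABP5 was highest in ETS1-Low, and FABP3, FABP4, FABP6 and RBP4 stayed at 15 counts or fewer in every library. The lost transcript and the gained one thus came from a fatty acid carrier and a retinoic acid carrier of the same family.

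**Figure D1:**
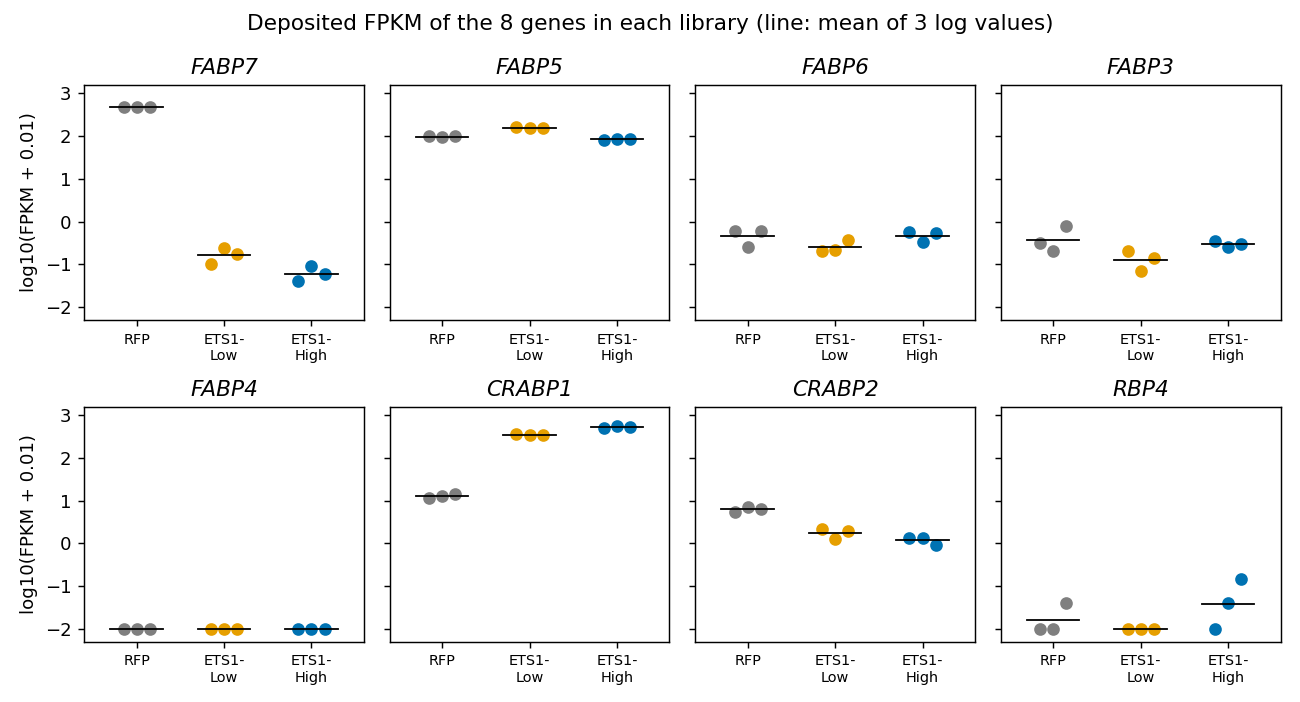
Level of each of the 8 genes in each of the 9 libraries, as log10(FPKM + 0.01), where FPKM is the deposited value scaled to gene length and library size. Points are libraries and lines are means of the log values. FABP7 runs from 485.69 to 492.18 in RFP and from 0.03 to 0.23 across the ETS1 libraries, while CRABP1 runs from 11.82 to 14.18 in RFP and from 344.97 to 545.60 in the ETS1 libraries.

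FABP7 (ENSG00000164434.11, GRCh38 chromosome 6, 122779716 to 122784074, plus strand) held 19369, 18697 and 19487.95 expected counts in the 3 RFP libraries. It held 3, 11 and 6 counts in ETS1-Low and 1, 3 and 2 counts in ETS1-High. No ETS1 library came near any RFP library, and the RFP libraries lay close together. In CPM the means were 400.2 ± 1.99 in RFP, 0.157 ± 0.083 in ETS1-Low and 0.0456 ± 0.021 in ETS1-High. By FPKM, FABP7 ranked 186 among the 58381 genes in RFP, and 17176 and 20582 in ETS1-Low and ETS1-High.

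Summed over the libraries, 57554 FABP7 counts in RFP stood against 6 in ETS1-High, a depth-corrected ratio of 8610 with an exact 95% interval of 3950 to 23400. Against the 20 counts of ETS1-Low the ratio was 2480, with an interval of 1600 to 4050. These intervals cover counting error only, since the libraries are PCR-amplified without molecular identifiers. The fitted log2 fold changes of FABP7, −13 for ETS1-High and −11.2 for ETS1-Low relative to RFP, depend on the prior count at such low levels and were the 2nd and the 8th lowest of 17235 genes tested. The 2 comparisons share the RFP libraries.

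Both ETS1 groups therefore held a few FABP7 counts per library. Whether these counts come from transcripts of the ETS1 cells was not tested. Corrected for depth, they were 3.47 times higher in ETS1-Low than in ETS1-High, with an exact 95% interval of 1.35 to 10.6 for counting error only. This interval leaves out the spread between libraries and is no test between the groups. Both groups hold a library with 3 counts, and ETS1-Low replicate 2 holds 11 of the 20 counts of its group. FABP7 passed the filter on low counts only through RFP, so no test between the ETS1 groups is given for it.

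CRABP1 (ENSG00000166426.7, chromosome 15, 78340353 to 78348225, plus strand) held 318, 339 and 390 expected counts in RFP. It held 8339, 9516 and 8819 in ETS1-Low and 11966.11, 14853.81 and 13827.88 in ETS1-High. All 3 groups were apart, in the order of ETS1. The means were 7.28 ± 0.69, 215.8 ± 4.51 and 314.6 ± 14 CPM. The log2 fold change against RFP was 4.89 (SE 0.047) in ETS1-Low, a 29.6-fold difference, and 5.43 (SE 0.047) in ETS1-High, a 43.2-fold difference. These were the 75th and the 76th highest of the genes tested. ETS1-High exceeded ETS1-Low by 0.54 on the log2 scale (SE 0.033, adjusted p = 1.3e-18, edgeR).

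CRABP2 (ENSG00000143320.8, chromosome 1, 156699606 to 156705816, minus strand) held 197, 249 and 247 counts in RFP, 59, 48 and 66 in ETS1-Low and 44, 49 and 34 in ETS1-High. Every ETS1 library was below every RFP library. The means were 4.82 ± 0.64, 1.41 ± 0.30 and 0.99 ± 0.20 CPM, with log2 fold changes against RFP of −1.78 (SE 0.15) in ETS1-Low and −2.29 (SE 0.16) in ETS1-High. The libraries of the ETS1 groups overlapped. ETS1-High against ETS1-Low gave −0.51 (SE 0.19, adjusted p = 0.0217, edgeR), and this call was lost with DESeq2, whose adjusted p was 0.0845. It was also lost without ETS1-Low replicate 1, ETS1-Low replicate 3 or ETS1-High replicate 3. The values were then −0.43, −0.40 and −0.34, with adjusted p of 0.0882, 0.12 and 0.161 in edgeR. With log2(FPKM + 1), log2(FPKM + 0.1) and log2(FPKM + 1) without a filter the call was lost too. The adjusted p was 0.0645, 0.0514 and 0.176 in limma.

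The ratio of CRABP1 to CRABP2, taken per library from FPKM, was 2.05 ± 0.199 in RFP, 209.0 ± 56.8 in ETS1-Low and 450.3 ± 98.1 in ETS1-High. The SD grows with the few CRABP2 counts in the denominator. The highest ETS1-Low library, at 274, was below the lowest ETS1-High library, at 374.

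The sequences just before the starts of the genes with the widest shifts are shown because ETS factors and EWSR1::FLI1 recognise GGAA. The RefSeq promoters of GRCh38.p14 were reduced to the bases before the start, which gives chr6:122779466-122779715 on the plus strand for FABP7, chr15:78340103-78340352 on the plus strand for CRABP1 and chr1:156705817-156706034 on the minus strand for CRABP2, each on the strand of its gene. From CRABP2, 32 bases at the far end were left out because they lie in an annotated exon of a protein-coding transcript. Capitals mark GGAA on either strand, where TTCC is the same motif on the opposite strand.
FABP7: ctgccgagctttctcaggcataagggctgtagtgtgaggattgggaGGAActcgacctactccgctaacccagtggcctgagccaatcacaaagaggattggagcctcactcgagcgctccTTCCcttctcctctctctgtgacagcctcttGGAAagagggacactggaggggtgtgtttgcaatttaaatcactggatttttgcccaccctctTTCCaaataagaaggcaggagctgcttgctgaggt
CRABP1: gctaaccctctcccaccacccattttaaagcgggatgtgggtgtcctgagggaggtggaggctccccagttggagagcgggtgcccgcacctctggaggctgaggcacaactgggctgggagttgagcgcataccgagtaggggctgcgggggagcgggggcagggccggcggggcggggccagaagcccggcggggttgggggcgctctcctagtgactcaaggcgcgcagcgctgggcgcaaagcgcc
CRABP2: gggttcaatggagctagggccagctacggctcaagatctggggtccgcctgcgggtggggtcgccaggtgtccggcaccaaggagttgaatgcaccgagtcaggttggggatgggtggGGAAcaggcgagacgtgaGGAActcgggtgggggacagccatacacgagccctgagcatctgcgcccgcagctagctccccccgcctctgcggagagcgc
The FABP7 window holds 4 matches, which begin 204, 129, 98 and 35 bases before the start, and has a GC content of 52.8%. The CRABP1 window holds 0 matches at a GC content of 70.0%, and the CRABP2 window of 218 bases holds 2, at 132 and 114 bases before the start, with a GC content of 66.5%. GGAA is common. It occurs in 92.7% of 35116 RefSeq promoter windows of 250 bases, 34.3% of which hold at least 4, and in 90.0% of those of 218 bases.

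Other letters searched on both strands were the ETS consensus CCGGAAGT, the tandem GGAAGGAA to which EWSR1::FLI1 binds in longer repeats, the nuclear receptor site AGGTCA, the RBPJ site TGGGAA and the nuclear factor I palindrome, which is TTGGC and GCCAA with 5 bases between them. The first, second and RBPJ motifs contain GGAA. None of them occurs in the 3 windows. Of the promoter windows of 250 bases, 3.42%, 3.06%, 12.1%, 20.8% and 0.0285% hold them, in the order given. A match or its lack says only which letters stand in a window.

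FABP5 (ENSG00000164687.10, chromosome 8, 81280536 to 81284777, plus strand), the epidermal form, is widely expressed and also binds retinoic acid. It held 3022.74, 2768.19 and 3057.09 expected counts in RFP, 4300.56, 4963.40 and 4326.62 in ETS1-Low and 2176.93, 2622.27 and 2597.74 in ETS1-High. The ETS1-Low libraries stood above the other 6. The means were 61.5 ± 2.12, 109.9 ± 4.07 and 57.3 ± 1.72 CPM. The log2 fold change against RFP was 0.84 (SE 0.034) in ETS1-Low and −0.10 (SE 0.036) in ETS1-High. ETS1-High lay below ETS1-Low by −0.94 on the log2 scale (SE 0.035, adjusted p = 1.09e-28, edgeR). Its expected counts are not whole in any of the 9 libraries, which is how reads shared with other genes appear, and its level is uncertain to that extent.

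FABP6 (ENSG00000170231.15, chromosome 5, 160187367 to 160238735, plus strand), the ileal bile acid binding protein, held 9, 6 and 13 counts in RFP, 4, 5 and 4 in ETS1-Low and 11, 7 and 14 in ETS1-High. The ratio of ETS1-Low to ETS1-High was 0.424 from the summed counts, with an exact 95% interval of 0.204 to 0.83 for counting error only. This interval leaves out the spread between libraries and is no test between the groups. FABP6 did not pass the filter when it was run on the ETS1 groups alone, so no test between them is given. Against RFP the log2 fold changes were −0.87 (SE 0.52) in ETS1-Low and 0.35 (SE 0.44) in ETS1-High.

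FABP3 (ENSG00000121769.7, chromosome 1, 31365253 to 31376850, minus strand), the heart and muscle form, held 7, 4 and 15 counts in RFP, 4, 1 and 2 in ETS1-Low and 5, 5 and 7 in ETS1-High, and did not pass the filter on low counts. RFP and ETS1-High overlapped. FABP4 (ENSG00000170323.8, chromosome 8, 81478419 to 81483236, minus strand), the adipocyte form and a target of PPARG, held 0 counts in all 9 libraries, which allows up to 0.0793 CPM in the shallowest of them (a floor of 3 counts). RBP4 (ENSG00000138207.13, chromosome 10, 93591687 to 93601744, minus strand) held 0, 0 and 1 counts in RFP, 0 in each ETS1-Low library and 0, 1 and 4 in ETS1-High.

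In all, 5 of the 8 genes passed the filter. In ETS1-High against RFP 4 of the 5 were called at an adjusted p under 0.05 in edgeR, 1 higher and 3 lower, where 74.2% of all genes tested were called. In ETS1-Low against RFP 4 of the 5 were called, 2 higher and 2 lower, where 74.1% of all were. These contrasts were used in choosing the genes, and nothing is read from the counts. In ETS1-High against ETS1-Low 59.2% of all genes were called. With the filter run on those groups alone, FABP5, CRABP1 and CRABP2 were tested, and these 3 were called in that fit as well (adjusted p = 3.87e-31, 3.15e-22 and 0.0342, edgeR).

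**Figure D2:**
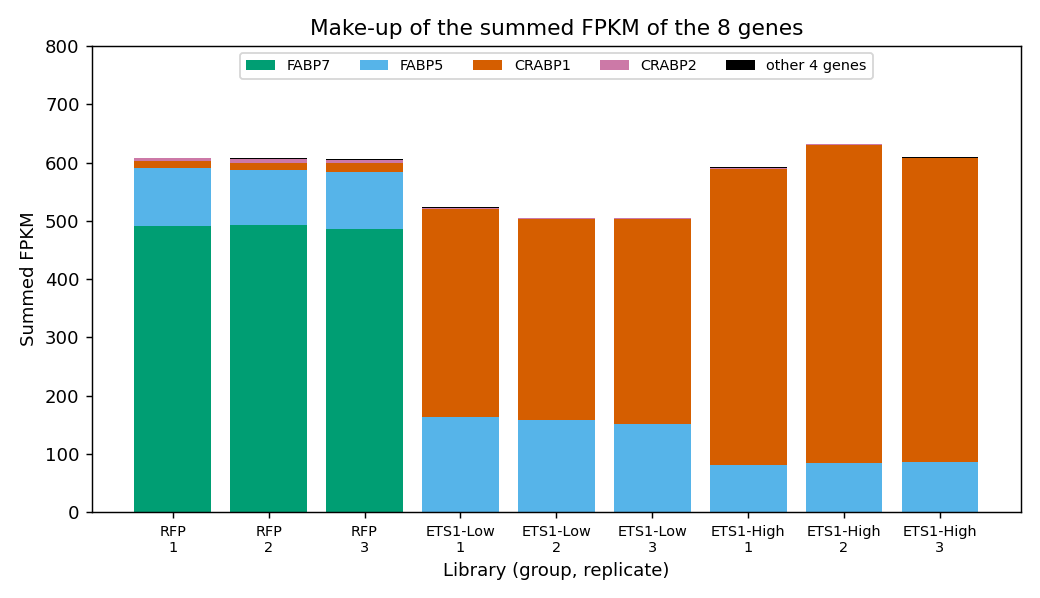
Summed FPKM of the 8 genes per library, stacked by gene, on a linear axis from 0. The sum is 606.5 to 608.4 in RFP, 504.9 to 522.9 in ETS1-Low and 591.9 to 632.3 in ETS1-High, while its main component changes from FABP7 to CRABP1. FPKM lacks the scaling factors used for CPM, so sums of different groups are compared on the deposited scale only.

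Per length, the summed transcript level of the 8 genes was 607.4 ± 0.954 FPKM in RFP, 511.1 ± 10.2 in ETS1-Low and 611.3 ± 20.3 in ETS1-High. On this scale the RFP sums of 606.5 to 608.4 lay within the ETS1-High range of 591.9 to 632.3. The ETS1-Low sums of 504.9 to 522.9 lay below both. FPKM lacks the TMM scaling factors used for CPM. These were 1.046 to 1.068 in RFP, 0.9579 to 0.9685 in ETS1-Low and 0.9743 to 0.9868 in ETS1-High. Whether the RFP and ETS1-High sums are alike therefore depends on the scaling. FABP7 made up 80.6% ± 0.458 of the sum in RFP, against 0.0321% ± 0.014 in ETS1-Low and 0.00866% ± 0.0038 in ETS1-High. CRABP1 made up 2.14% ± 0.20, 68.7% ± 0.61 and 85.9% ± 0.40, and FABP5 16.1% ± 0.40, 30.8% ± 0.64 and 13.8% ± 0.40. CRABP1 at 525.0 ± 19.0 FPKM in ETS1-High exceeded FABP7 at 489.7 ± 3.48 FPKM in RFP.

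The order of the levels changed with it. In RFP, by mean FPKM, FABP7 at 489.7 was followed by FABP5 at 97.4, CRABP1 at 13 and CRABP2 at 6.39, whose libraries did not overlap with their neighbours in the order. FABP6 at 0.483 and FABP3 at 0.430 followed and overlapped. In ETS1-Low the order was CRABP1 at 351.1, FABP5 at 157.7 and CRABP2 at 1.76, then FABP6, FABP7 and FABP3 at 0.257, 0.163 and 0.130, whose libraries overlapped. In ETS1-High CRABP1 at 525.0, FABP5 at 84.2 and CRABP2 at 1.20 stood apart, FABP6 at 0.480 and FABP3 at 0.297 overlapped, and FABP7 at 0.0533 was below FABP3 in every library.

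Among the other listed proteins of the family, RBP7 is an intracellular carrier of retinol. RBP7 measured 0.54 ± 0.19, 2.13 ± 0.11 and 1.75 ± 0.12 CPM. It rose in both ETS1 groups, by 1.97 and 1.68 on the log2 scale (adjusted p = 4.62e-12 and 7.38e-10, edgeR). FABP1, PMP2, FABP9 and RBP2 held 0 counts in all libraries. FABP2 held 2 to 3 counts per RFP library and 0 in the others, FABP12 at most 2 and RBP5 at most 4. PMP2, FABP9, FABP4 and FABP12 lie between 81440326 and 81590139 on chromosome 8, beyond FABP5, so the only gene of that cluster with more than 2 counts in a library was FABP5.

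The surrounding pathways were read from lists of 113 genes, of which 82 passed the filter. In ETS1-High against RFP 47 rose and 28 fell, 91.5% in all, where 37.0% of all genes rose and 37.2% fell. In ETS1-Low against RFP 38 rose and 30 fell, 82.9% in all, where 37.9% of all genes rose and 36.2% fell. In ETS1-High against ETS1-Low 35 rose and 23 fell, 70.7% in all, where 29.9% of all genes rose and 29.3% fell. Of all genes called, 49.8% were higher in the ETS1-High comparison and 51.2% in that of ETS1-Low, and 38.1% and 36.5% when log2(FPKM + 1) was tested without a filter on low values. The median log2 fold change of the 82 was 0.31, 0.13 and 0.06, beside −0.01, 0.01 and −4.7e-05 for all genes tested.

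**Figure D3:**
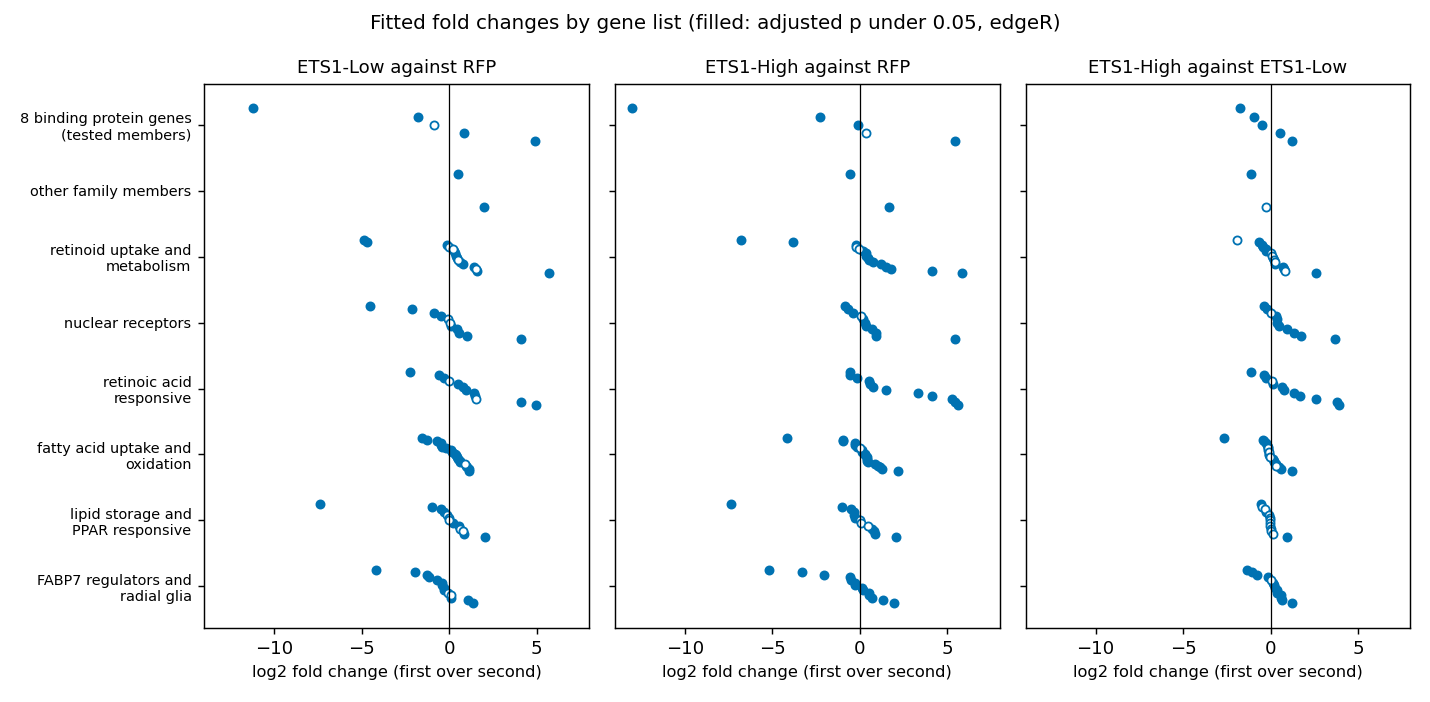
Log2 fold changes of the tested genes of each list in the 3 comparisons, 1 point per gene, filled where the adjusted p was under 0.05 (for the binding proteins against RFP, and for FABP6 and FABP7 between the ETS1 groups, the fill is no result). The retinoic acid responsive genes have a median of 1.13 in ETS1-High against RFP, beside −0.01 for all genes tested, and the FABP7 points against RFP, at −13 and −11.2, are the lowest shown.

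Among the genes of retinoid uptake and metabolism more rose than fell. Of 16 of 21 listed genes that were tested, 11 rose and 3 fell in ETS1-High against RFP, with a median log2 fold change of 0.42, and 9 rose and 3 fell in ETS1-Low, with a median of 0.44. ALDH1A1, which makes retinoic acid from retinal, measured 45.6 ± 1.28 CPM in RFP, 2356 ± 39.9 in ETS1-Low and 2638 ± 45.4 in ETS1-High. It rose 51.6-fold and 57.8-fold (adjusted p = 5.24e-62 and 2.87e-62, edgeR). STRA6, the cell surface receptor for RBP4-bound retinol, rose from 14.8 ± 0.50 to 39.3 ± 0.62 and 41.8 ± 1.32 CPM (adjusted p = 6.47e-32 and 2.56e-33). CYP26B1, which degrades retinoic acid, measured 2.83 ± 0.30, 2.75 ± 0.55 and 4.80 ± 0.26 CPM. It rose in ETS1-High (log2 fold change 0.76, adjusted p = 2.12e-07, edgeR), whereas the ETS1-Low value of −0.04 did not pass the test (adjusted p = 0.814).

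Nuclear receptors that take up retinoids or fatty acids were also tested, 11 of 14. In ETS1-High against RFP 7 rose and 3 fell (median 0.30), in ETS1-Low 5 rose and 4 fell (median 0.07), and in ETS1-High against ETS1-Low 8 rose and 2 fell (median 0.36). RARB, a retinoic acid receptor that is itself induced by retinoic acid, measured 0.132 ± 0.043 CPM in RFP, 2.31 ± 0.28 in ETS1-Low and 5.87 ± 0.029 in ETS1-High. It rose by 4.10 and 5.44 on the log2 scale (adjusted p = 2.07e-21 and 3.76e-29, edgeR). RARG rose from 30.8 ± 1.5 to 44.7 ± 0.72 and 57.4 ± 3.5 CPM (adjusted p = 1.34e-15 and 2.24e-24). PPARA, a receptor for fatty acids, rose from 12.6 ± 0.60 to 17.4 ± 0.72 and 24.2 ± 0.87 CPM (adjusted p = 6.57e-10 and 9.64e-21).

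Genes known to respond to retinoic acid had the largest median of these lists in ETS1-High against RFP, 1.13, with 9 of 12 tested genes higher and 3 lower. In ETS1-Low 7 rose and 3 fell (median 0.87), and from ETS1-Low to ETS1-High 8 rose and 3 fell (median 0.74). RARRES3, a phospholipase named for its response to retinoic acid receptor ligands, measured 0.181 ± 0.035 CPM in RFP, 5.66 ± 0.50 in ETS1-Low and 9.05 ± 0.77 in ETS1-High. TGM2, a transglutaminase, measured 0.787 ± 0.14, 2.15 ± 0.31 and 30.5 ± 1.05 CPM. RARRES3 rose 30.8-fold and 49.3-fold (adjusted p = 7.82e-30 and 1.01e-33, edgeR), whereas the TGM2 fold was 2.75 in ETS1-Low and 38.7 in ETS1-High (adjusted p = 1.65e-12 and 3.77e-42). Some genes stand in more than 1 list, 6 in all.

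Of 22 genes for fatty acid uptake, activation and oxidation, 20 were tested. In ETS1-High against RFP 13 rose and 6 fell (median 0.32) and in ETS1-Low 12 rose and 7 fell (median 0.37). CPT1A, which admits long-chain fatty acids to the mitochondrion, rose from 43.8 ± 2.33 to 95.6 ± 0.26 and 104.3 ± 5.05 CPM (adjusted p = 1.73e-30 and 1.43e-32, edgeR). ACSL1, an acyl-CoA synthetase, rose from 18.9 ± 1.25 to 36.6 ± 2.29 and 41.2 ± 1.53 CPM (adjusted p = 2.94e-21 and 4.51e-24). SLC27A3, of the fatty acid transport protein family, rose 2.23-fold in ETS1-Low and 2.08-fold in ETS1-High (adjusted p = 7.27e-18 and 2.14e-16).

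Lipid storage and PPAR-responsive genes showed no common direction. Of 13 tested of 18, 4 rose and 6 fell in ETS1-High and 4 rose and 4 fell in ETS1-Low, with medians of 0.003 and 0.01. ANGPTL4, a secreted lipase inhibitor induced by PPARs, rose from 2.96 ± 0.33 to 12.4 ± 0.78 and 12.2 ± 0.56 CPM (adjusted p = 5.53e-27 and 7.35e-27, edgeR). PNPLA2, the lipase that starts triglyceride breakdown, rose 1.83-fold in both (adjusted p = 3.1e-27 and 2.54e-27). DGAT2, which makes triglyceride, rose in ETS1-High by 0.83 on the log2 scale (adjusted p = 5.28e-07), with an ETS1-Low value of −0.12 (adjusted p = 0.483).

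The last list holds regulators of FABP7 and other genes of radial glia, the cells in which FABP7 is best known. Of 14 tested of 18, 7 rose and 7 fell in ETS1-High against RFP (median −0.08), and 3 rose and 9 fell in ETS1-Low (median −0.35). NES, the intermediate filament nestin, measured 40.7 ± 0.53 CPM in RFP, 2.26 ± 0.18 in ETS1-Low and 1.09 ± 0.20 in ETS1-High. It was 18.0-fold and 37.1-fold lower (adjusted p = 1.04e-42 and 9e-45, edgeR). SLC1A3, a glutamate transporter, fell from 64.5 ± 1.71 to 16.4 ± 0.90 and 6.54 ± 0.71 CPM (adjusted p = 6.77e-37 and 5.42e-44). PTPRZ1, a receptor phosphatase, fell from 31.0 ± 0.39 to 12.6 ± 0.68 and 7.49 ± 0.30 CPM (adjusted p = 1.59e-26 and 6.58e-34). Other genes of the list, named after their values were seen, rose in ETS1-High. TNC rose by 0.53, HES1 by 0.70 and SOX2 by 0.10 on the log2 scale (adjusted p = 5.97e-22, 1.97e-16 and 0.00505). In ETS1-Low TNC and SOX2 fell by 0.71 and 0.29, and HES1 at 0.10 did not pass the test (adjusted p = 0.0622).

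Known activators of FABP7 were named from this list after their values were seen. PAX6 rose by 1.37 in ETS1-Low and 1.95 in ETS1-High on the log2 scale (adjusted p = 1.11e-22 and 7.75e-30, edgeR). NFIX, of the nuclear factor I family, rose by 1.09 and 1.33 (adjusted p = 9.19e-34 and 1.16e-37). NFIB of the same family rose by 0.12 and 0.51 (adjusted p = 0.000488 and 2.46e-20). POU3F2 measured 262.9 ± 2.51, 255.1 ± 2.63 and 297.3 ± 2.81 CPM, with a log2 fold change of −0.04 in ETS1-Low that did not pass the test (adjusted p = 0.163) and a rise of 0.18 in ETS1-High (adjusted p = 2.46e-07). NOTCH1 fell by 1.15 in ETS1-Low and 0.48 in ETS1-High (adjusted p = 6.44e-34 and 4.68e-19), its nuclear partner RBPJ by 0.29 and 0.26 (adjusted p = 5.21e-11 and 1.58e-09) and NFIA by 0.43 and 0.28 (adjusted p = 8.82e-12 and 3.06e-07). The activators named here had no common direction in these libraries, and their part in the loss of FABP7 was not tested.

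The patterns most like that of FABP7 were sought by Euclidean distance between centred log2(CPM + 0.5) values over the 9 libraries. The 5 nearest genes were VCAN (distance 2.36), GAP43 (2.79), CNTNAP2 (2.92), DCX (3.82) and SEZ6L (4.12). Mean levels of FABP7 and these 5 genes lay below the added 0.5 in both ETS1 groups. Their order therefore follows mainly the level in RFP and says little about differences between the ETS1 groups. VCAN encodes versican, a matrix proteoglycan, GAP43 a growth cone protein, CNTNAP2 an axonal adhesion protein and DCX a microtubule protein of migrating neurons. GAP43 measured 103 CPM in RFP and 0.129 and 0.0627 in the ETS1 groups, and VCAN 115, 0.0258 and 0.0372. For CRABP1 the nearest 3 were PKIA, SYNPR and IGFBP5 (distances 0.327, 0.36 and 0.749), for FABP5 PCLAF, ERLIN2 and CUTC (0.131, 0.192 and 0.195) and for CRABP2 GNAL, LINC00632 and PRKG1 (0.406, 0.434 and 0.446). The added 0.5 also damps the changes of PKIA, which lay below it in RFP, and of GNAL and PRKG1, which lay below it in both ETS1 groups. GNAL was 35.2-fold lower in ETS1-High than in RFP, beside 4.88-fold for CRABP2. FABP6 lay below the added 0.5 in every group, and its nearest genes, RP11-143K11.7, TIGAR and RP11-15H20.5, differ little between groups.

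**Figure D4:**
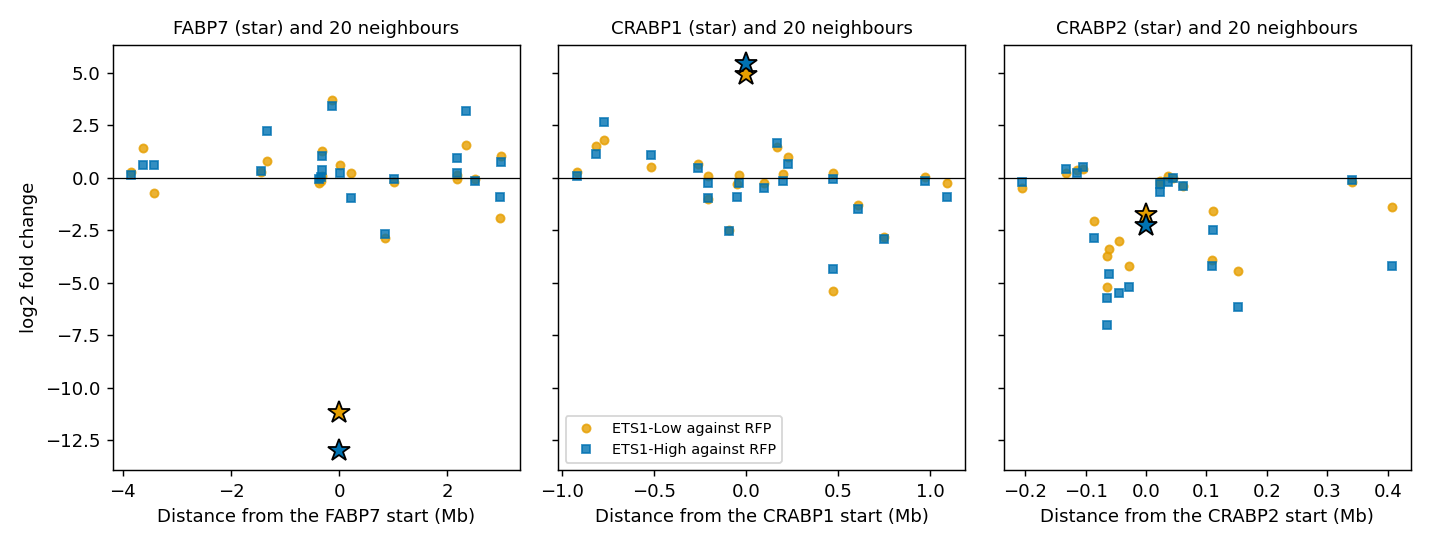
Log2 fold changes against RFP of the 10 tested genes on each side of FABP7, CRABP1 and CRABP2, by distance from the gene's start in Mb (circles ETS1-Low, squares ETS1-High, stars the gene itself). FABP7 at −13 and −11.2 stands far below its neighbours, whose lowest value is −2.88. Of the 20 neighbours of CRABP2, 16 fell in ETS1-High, where 37.2% of all genes tested fell. Some of these neighbours passed the filter on low counts only through RFP and could not have been called higher.

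None of the 20 tested genes nearest to FABP7 had a fold change near its own. Their log2 fold changes ran from −2.67 to 3.44 in ETS1-High and from −2.88 to 3.72 in ETS1-Low. SMPDL3A, 9.33 kb away, measured 30.5 ± 0.38 CPM in RFP, 46.4 ± 1.89 in ETS1-Low and 36.2 ± 1.03 in ETS1-High, and rose in both ETS1 groups (log2 fold changes 0.61 and 0.25, adjusted p = 5.69e-19 and 4.56e-07, edgeR). PKIB, 308 kb away on the other side, rose by 1.27 and 1.06 (adjusted p = 4.4e-33 and 1.2e-29). SERINC1, also at 308 kb, rose by 0.40 in ETS1-High (adjusted p = 6.99e-18) and by 0.08 in ETS1-Low (adjusted p = 0.0127), where the sign turned to −0.05 to −0.06 with FPKM. CLVS2, 217 kb away, rose by 0.24 in ETS1-Low and fell by 0.95 in ETS1-High (adjusted p = 1.19e-09 and 3.91e-31), and TRDN, 857 kb away, fell by 2.88 and 2.67 (adjusted p = 1.13e-38 and 6.14e-38). RP11-95G17.2 at 136 kb rose from 0.0137 to 0.218 and 0.180 CPM. Over the 20 genes, which span 6.85 Mb, 11 rose and 4 fell in ETS1-High with a median of 0.30. In ETS1-Low 12 rose and 4 fell with a median of 0.20. Of all genes tested, 37.0% rose and 37.2% fell in ETS1-High, and 37.9% rose and 36.2% fell in ETS1-Low.

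CRABP2 had other surroundings. Over its 20 nearest tested genes, within 0.612 Mb, 3 rose and 16 fell in ETS1-High with a median log2 fold change of −1.57, and 3 rose and 15 fell in ETS1-Low with a median of −0.92. Some of these genes passed the filter on low counts only through RFP. INSRR, for example, measured 0.753 CPM in RFP, 0.0318 in ETS1-Low and 0.00746 in ETS1-High. Such genes could be counted only as lower or not called, so the counts and medians lean towards falls. NES, the radial glia gene above, lies 28.4 kb from CRABP2. BCAN, named after its values were seen, lies 64.4 kb away. BCAN, a brain proteoglycan, measured 24.1 CPM in RFP, 0.641 in ETS1-Low and 0.460 in ETS1-High (adjusted p = 1.19e-40 and 1.82e-41 against RFP, edgeR). CRABP1's 20 neighbours, over 2.01 Mb, had a median of −0.19 in ETS1-High, where CRABP1 itself was at 5.43, and of 0.12 in ETS1-Low, where CRABP1 was at 4.89. Neighbours within a region are not independent of each other, and whether CRABP2 and its neighbours share a cause was not tested.

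CRABP1, CRABP2 and FABP5 each overlap a gene annotated on the opposite strand in GENCODE. The library kit marks strand, but whether the counting used it is not given in the sources used here, so reads of the partners cannot be told apart with certainty.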

How the data were processed

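The authors deposited RSEM expected counts (estimated counts per gene, not normalized) and RSEM FPKM values, per the file headers and names. Per the submitters' processing notes, the tools were cutadapt 4.4, STAR 2.7.3, featureCounts of Subread 2.0.3 and limma 3.38.3, with builds GRCh38 and hg38. The annotation is not given in the sources used here. Libraries were stranded mRNA preparations, per the labels' protocols. Totals ran from 39484704 to 46654734 expected counts, of which 9.00% to 10.3% of values per library were not whole (tolerance 1e-06), and 0 columns were left unmapped. In column names, L was taken as Low and H as High.

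Expected counts were rounded and tested with edgeR 4.0.16 in R 4.3.3 (TMM, filterByExpr by group, quasi-likelihood with robust estimation) in 1 fit of 9 libraries. Benjamini-Hochberg adjustment ran over 17235 genes in each of 3 comparisons, with calls at 0.05, after tests on simulated data. Replicates differed by more than sampling noise (chi-square per gene 2.66 to 5.19) and were counted separately. The genes and lists were chosen with earlier results of these data known. Genes of a list are named by the size of their change in ETS1-High against RFP among those called with at least 100 mean counts over the 9 libraries and no overlap between groups (up to 3 per list), and genes near a member in pattern or position by rank. Promoter positions come from RefSeq, gene positions from GENCODE 44. Alternatives used DESeq2 1.42.0, limma 3.58.1, other scalings and filters, FPKM, and each library left out. A floor of 3 counts is the limit that a count of 0 allows. Some items are not reported here.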

Additional observations from a re-analysis of the deposited data

Results flagged for a closer look

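ETS1-Low and ETS1-High differed in level for several genes, by the direct comparison of ETS1-High with ETS1-Low in edgeR (adjusted p under 0.05). Of all genes tested, 59.2% were called in that comparison. Among the binding proteins the log2 difference was 0.54 for CRABP1, −0.51 for CRABP2 and −0.94 for FABP5. The CRABP2 value rests on few counts and lost the call in some settings.

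Among the pathway genes described in the report, TGM2 differed by 3.82, RARB by 1.35, RARRES3 by 0.68, CYP26B1 by 0.80, RARG by 0.36 and ALDH1A1 by 0.16. Of the genes of fatty acid handling PPARA differed by 0.48, DGAT2 by 0.94, ACSL1 by 0.17 and CPT1A by 0.12. The radial glia genes NES, SLC1A3 and PTPRZ1 were lower still in ETS1-High, at −1.04, −1.32 and −0.76. Of the 14 tested genes of their list, however, 9 were higher and 4 lower in ETS1-High than in ETS1-Low, with TNC higher by 1.24.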

How the results depend on the processing

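The 19 alternatives covered scaling, filters, the groups fitted, the replicate block, single libraries left out, DESeq2 and FPKM. DESeq2 also changed the scaling and the genes tested (31409), and the FPKM settings also changed the test and the genes tested (13401, or 31313 with no filter). Against RFP, CRABP1 ran from 5.23 to 5.51 in ETS1-High and from 4.65 to 4.96 in ETS1-Low on the log2 scale, CRABP2 from −2.39 to −1.75 and from −1.89 to −1.42, and FABP7 from −13.3 to −8.86 and from −11.7 to −8.72, with the FPKM pseudocount setting the smallest sizes. Of the binding proteins, 4 were called in ETS1-High against RFP, and 3 without RFP replicate 3 or ETS1-High replicate 1, where FABP5 dropped out. That contrast was used in choosing the genes, and nothing is read from these counts. In ETS1-High against ETS1-Low 5 were called, FABP6 and FABP7 among them, which entered through the filter over all 3 groups and whose calls are not read as results. The number was 3 with DESeq2, with at least 10 counts in every library, with only the groups compared, with log2(FPKM + 1) and with log2(FPKM + 0.1), and 2 with log2(FPKM + 1) and no filter. CRABP2 was not called with DESeq2 or with any FPKM setting. The 3 called with DESeq2, log2(FPKM + 1) and log2(FPKM + 0.1) therefore include FABP7, whose call is not read as a result. Stricter filters tested 3 genes, so FABP6 and FABP7 could not be called there. Leaving out single libraries gave 3 to 5. SERINC1 in ETS1-Low against RFP turned from 0.08 to −0.054, −0.055 and −0.054 with log2(FPKM + 1), log2(FPKM + 0.1) and log2(FPKM + 1) without a filter. FPKM lacks the scaling factors used for CPM. The median of all genes tested in that comparison was 0.0101 in the main fit and −0.0712 with log2(FPKM + 1). The cause of the SERINC1 change was not tested.

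Samples share only a replicate number. Deviations from group means correlated at −0.0611 to 0.0609 for the 9 same-numbered pairs, and 7 of 18 combinations of a library and another group had their highest correlation at the same number. With the replicate number as a block, FABP5, CRABP1 and CRABP2 kept their calls in ETS1-High against ETS1-Low, while FABP6 dropped out. Pathway genes called were 75, 68 and 59 in ETS1-High against RFP, ETS1-Low against RFP and ETS1-High against ETS1-Low. Of all 17235 genes tested, 12701, 12729 and 10122 were called in that setting. Depth limits FABP3, FABP4, FABP6, RBP4 and the FABP7 values of the ETS1 groups, which rest on at most 15 counts per library.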

Other observations

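Some listed genes with few counts differed in level between groups but fell under the 100 mean counts needed to be described above. They were chosen here after their values were seen. ALDH1A2 and LPL passed the filter on low counts only through RFP, and CYP26A1 only through ETS1-High. The levels of these genes are given as a description without a test. ALDH1A2, another enzyme that makes retinoic acid, measured 0.480 ± 0.059 CPM in RFP, 0.0162 ± 0.014 in ETS1-Low and 0.0319 ± 0.028 in ETS1-High. Its mean was lower in the ETS1 groups, where that of ALDH1A1 was higher. CYP26A1, a retinoic acid hydroxylase induced by retinoic acid, measured 0.0342 ± 0.059 CPM in RFP, 0.109 ± 0.071 in ETS1-Low and 0.657 ± 0.20 in ETS1-High. Its mean was highest in ETS1-High. NR2F1, an orphan nuclear receptor, measured 2.47 ± 0.30 CPM in RFP, 0.104 ± 0.030 in ETS1-Low and 1.36 ± 0.28 in ETS1-High. NR2F1 fell by 4.52 and 0.86 on the log2 scale (adjusted p = 8.04e-20 and 3.04e-05, edgeR). ETS1-High exceeded ETS1-Low by 3.66 (adjusted p = 1.37e-14). LPL, the lipase that frees fatty acids from lipoproteins, measured 0.475 ± 0.16 CPM in RFP and held 0 counts in every ETS1 library.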
